A study of Homo sapiens with 4 samples.

Results

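The genes described here are 30 genes of cholesterol and fatty acid synthesis and of its control by sterol regulatory element-binding proteins (SREBPs). They were chosen by name, and every probe that GEO's platform annotation assigns to a member symbol alone was taken. A named probe was found for 29 of the 30 members, 43 probes in all, of 20045 genes with a named probe in the series. FDFT1, squalene synthase, was not analysed here. The values come from 4 Illumina bead arrays of L591, a cell line established from Hodgkin lymphoma. In the first group, called PDLIM2, the cells carried the expression plasmid pcDNA3 with transcript variant 2 of PDLIM2, a putative ubiquitin ligase with a PDZ and a LIM domain. In the other group, called mock, they carried the same plasmid without it. All 4 samples also received pEGFP-N3, a GFP plasmid (10 µg beside 40 µg of the expression plasmid) and were sorted for GFP. Each group has 2 arrays, numbered 1 and 2 in the labels, and nothing says that these came from separate cultures, so a p-value here reflects the spread of these 4 samples alone, and that spread may be technical. A value is 1 log2 intensity per probe and array as deposited, and with so few arrays each difference is imprecise. Each gene is given by its brightest probe, the one with the highest mean over the 4 arrays. Levels of different probes are not comparable with each other. In bulk RNA, fewer cells that express a gene and less RNA per cell cannot be told apart.

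Cells build cholesterol from acetyl-CoA through mevalonate, isoprenoid units, squalene and lanosterol, and they build fatty acids from the same precursor by way of malonyl-CoA. SREBP transcription factors, made as membrane-bound precursors, drive most of these genes. SCAP escorts the precursors to the Golgi for cleavage when sterols are low, and INSIG proteins hold SCAP back when sterols are high, so that the enzymes of the pathway tend to be regulated as a block. SREBP2 is known mainly for the sterol genes and SREBP1 mainly for the fatty acid genes, and both act together with NF-Y, a factor that binds CCAAT boxes.

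The promoter sequences of 5 members are shown, chosen for their values. INSIG1, LSS, HMGCS1 and MVD are among the members with the highest differences between the array numbers, given further on. SC5D is one that went the other way in its values. Each window runs from 250 bases before to 50 after the annotated start (RefSeq, GRCh38.p14), 5′ to 3′ on the gene's strand. Capitals mark 3 sets of letters searched on both strands, which are CCAAT, CACNCCAC (the core letters of a sterol regulatory element) and CACGTG (the E-box), and no printed match overlaps another. For HMGCS1 and SC5D, which have more than 1 annotated start, the window listed first is shown.
INSIG1, chr7:155297628-155297927, plus strand: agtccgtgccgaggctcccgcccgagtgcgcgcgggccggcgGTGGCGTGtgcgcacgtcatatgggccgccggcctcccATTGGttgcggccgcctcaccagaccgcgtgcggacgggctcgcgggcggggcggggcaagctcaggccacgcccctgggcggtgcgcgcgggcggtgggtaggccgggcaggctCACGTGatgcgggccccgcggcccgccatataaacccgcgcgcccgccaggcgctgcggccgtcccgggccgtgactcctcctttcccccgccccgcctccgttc
LSS, chr21:46228725-46229024, minus strand: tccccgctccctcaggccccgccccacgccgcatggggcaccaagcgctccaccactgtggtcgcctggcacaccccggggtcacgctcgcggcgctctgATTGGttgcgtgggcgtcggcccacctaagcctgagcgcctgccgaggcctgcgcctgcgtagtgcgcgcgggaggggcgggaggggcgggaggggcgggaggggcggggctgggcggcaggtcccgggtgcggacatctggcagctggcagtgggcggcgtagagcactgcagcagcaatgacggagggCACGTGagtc
HMGCS1, chr5:43313363-43313662, minus strand: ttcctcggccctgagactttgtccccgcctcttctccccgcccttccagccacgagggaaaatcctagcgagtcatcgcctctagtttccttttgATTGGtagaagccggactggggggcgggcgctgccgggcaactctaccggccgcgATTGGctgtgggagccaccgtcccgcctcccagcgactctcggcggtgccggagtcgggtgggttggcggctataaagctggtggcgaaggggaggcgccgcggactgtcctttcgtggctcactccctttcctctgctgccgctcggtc
MVD, chr16:88663042-88663341, minus strand: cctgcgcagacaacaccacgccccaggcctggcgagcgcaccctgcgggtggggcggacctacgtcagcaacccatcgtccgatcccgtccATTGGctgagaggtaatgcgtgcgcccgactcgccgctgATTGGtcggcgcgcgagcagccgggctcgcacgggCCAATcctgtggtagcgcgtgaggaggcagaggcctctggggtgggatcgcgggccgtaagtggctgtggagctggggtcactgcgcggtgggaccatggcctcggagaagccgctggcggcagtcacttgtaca
SC5D, chr11:121292521-121292820, plus strand: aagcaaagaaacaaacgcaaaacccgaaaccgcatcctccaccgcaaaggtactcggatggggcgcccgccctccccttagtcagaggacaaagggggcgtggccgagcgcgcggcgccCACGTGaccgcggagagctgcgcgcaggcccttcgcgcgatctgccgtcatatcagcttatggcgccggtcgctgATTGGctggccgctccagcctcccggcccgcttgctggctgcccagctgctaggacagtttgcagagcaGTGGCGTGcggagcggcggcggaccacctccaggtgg

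A window was found for 26 of the 30 members, 35 windows in all. CCAAT stood in 24 of these 35 windows (68.6%), against 34.6% of all 35116 windows of the same length. The letters CACNCCAC stood in 7 of the 35 (20.0%), against 5.87% of all windows, and those were windows of INSIG1, SC5D, SREBF2, SCD, ACACA and IDI1. CACGTG stood in 5 of the 35 (14.3%), against 7.26% of all. Windows of 1 gene can overlap, and a match of letters is a description and no binding site. Among the printed windows, MVD holds 3 CCAAT boxes and HMGCS1 holds 2, while INSIG1 and SC5D each hold 1 match of every kind.

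The labels were checked first. The brighter of 2 PDLIM2 probes read 5.52 and 5.76 log2 units in PDLIM2 arrays 2 and 1, against 5.15 and 5.50 in mock arrays 2 and 1, and the other probe read 5.27 and 5.24, against 5.62 and 5.48. Both lay under the brightness filter (a mean above 5.99 log2 units, the median of all probes), the first with a higher and the second with a lower mean in PDLIM2. The part of PDLIM2 that they detect, and whether the transfected variant holds it, is unknown here, so they check nothing. All 8 markers of Hodgkin and Reed-Sternberg cells lay above the filter by their mean. CCL22 lay between 13.73 and 14.13 and CD30 (TNFRSF8) between 6.44 and 7.05. CCL17 passed narrowly, at 5.96 and 6.18 in PDLIM2 arrays 2 and 1 and 5.71 and 6.44 in mock arrays 2 and 1. Of the B-cell markers, PAX5 lay under the filter and MS4A1 read 5.90 to 6.24. CD79A read 11.57 to 11.92, EBF1 10.23 to 10.86 and CD79B 9.11 to 9.36. The T-cell receptor complex genes CD3D, CD3E and CD3G lay under the filter, although CD2 read 11.59 to 12.17.

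With PDLIM2, no member of the pathway passed the test, and the differences split evenly. The PDLIM2 arrays had the higher mean for 15 of the 29 measured members and the lower mean for 14, from -0.35 for HMGCS1 and SC5D to 0.28 for MVD, SREBF1 and FADS1 (log2 difference), with a median of 0.00864. Over all 12417 tested genes, which exclude FADS1 and FADS2 as too dim, the median was 0.0248. Among the 27 members above the filter, limma called 0 (adjusted p = 0.9998 for each), as it called 0% of all 23615 tested probes. None of these 27 had an unadjusted p under 0.05 in limma, against 2.82% of all tested probes. By brightest probe, the 2 PDLIM2 arrays lay above both mock arrays for 1 of the 27, SREBF1, and below both for 1, SC5D. Over all 39 tested probes of the members, 2 (5.13%) lay above and 6 (15.4%) below, against 15.8% above and 12.8% below among all tested probes. The standard errors of the members' differences lay between 0.17 and 0.37 log2 units. Without PDLIM2 array 1, which leaves that group with array 2 only, limma called 2 probes of the members (810 of all), MVD at 0.88 (adjusted p = 0.0236) and a dimmer MSMO1 probe at -0.93 (adjusted p = 0.0131). Without PDLIM2 array 2 it called 45 of all probes and none of the members. Of 11 heat shock genes, markers of stress, 8 had lower means in PDLIM2, with a median of -0.107. Of all 12417 tested genes, 5522 had lower means. BAG3, a chaperone partner, read 8.83 and 9.41 log2 units in PDLIM2 arrays 2 and 1, against 10.18 and 10.90 in mock arrays 2 and 1, without overlap (-1.42, SE 0.29), and DNAJB1 had -0.92 (SE 0.39). None of the 11 was called (limma, adjusted p = 0.9998), and their part in the members' values was not tested.

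**Figure D1:**
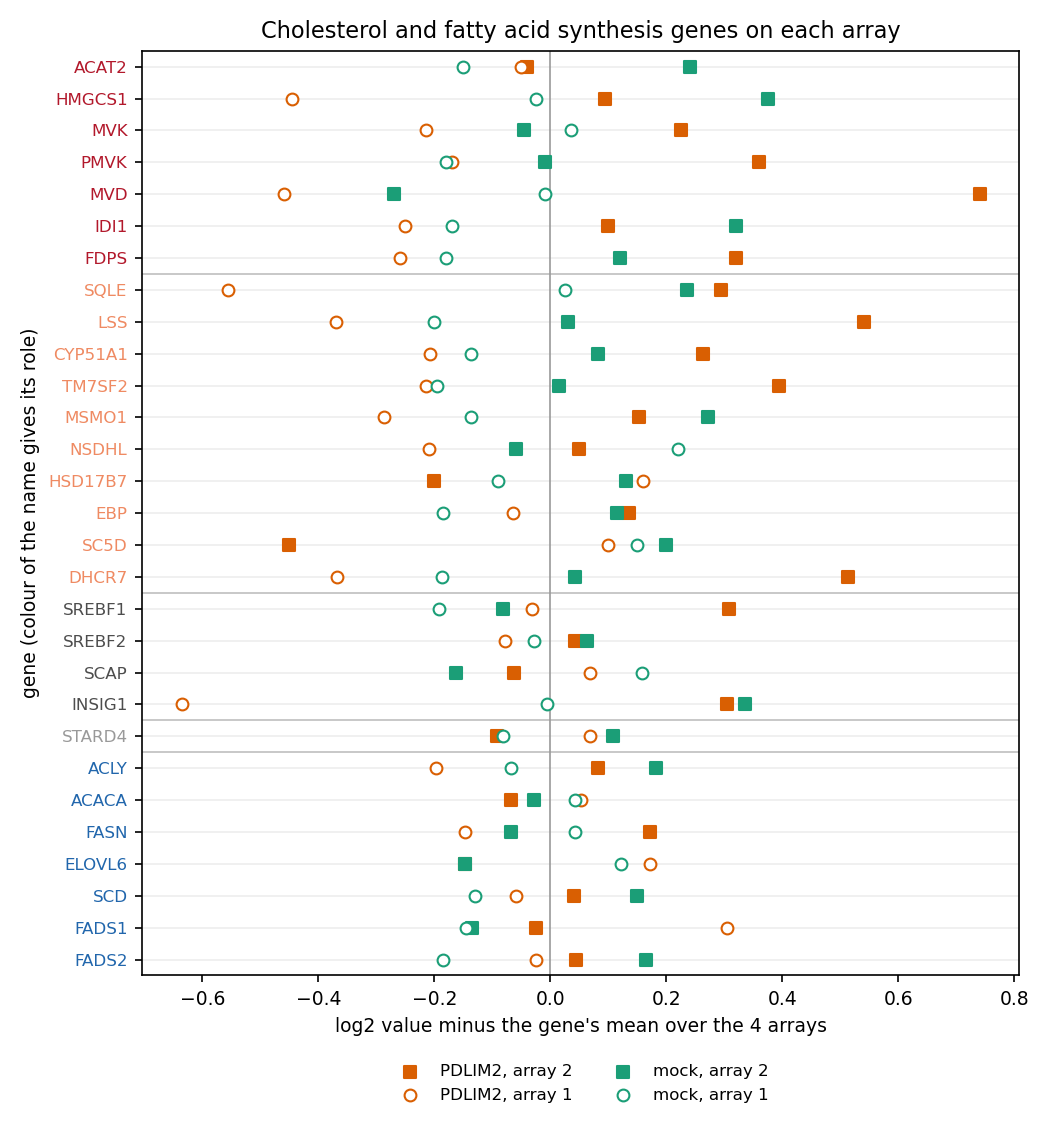
Each row is a member, placed by role, and each point is 1 array's log2 value minus the gene's mean over the 4 arrays (x axis, log2 units; filled squares are arrays numbered 2, open circles arrays numbered 1; orange PDLIM2, green mock). For most sterol genes the squares of both groups lie to the right of the circles, and PDLIM2 array 2 of MVD is the point farthest to the right.

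The 7 genes of the mevalonate steps had a median PDLIM2 minus mock difference of 0.00913, with 4 higher and 3 lower. HMGCS1, which makes HMG-CoA, the substrate of the rate-limiting step, read 12.21 and 11.67 log2 units in PDLIM2 arrays 2 and 1, against 12.49 and 12.09 in mock arrays 2 and 1 (ILMN_1797728). Its value was lower with PDLIM2 within both numbers, by differences of -0.28 (arrays 2) and -0.42 (arrays 1), but the groups overlapped, and the difference of -0.35 (SE 0.24; -0.62 to -0.08 with 1 array left out) was not called. MVD, which makes isopentenyl diphosphate by decarboxylation, read 10.24 and 9.04 in the PDLIM2 arrays 2 and 1, against 9.23 and 9.49 in the mock arrays. PDLIM2 array 2 was the highest and PDLIM2 array 1 the lowest of these 4 arrays, so its PDLIM2 minus mock difference came to 1.01 in arrays 2 and -0.45 in arrays 1.

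Of the kinases that phosphorylate mevalonate, MVK read 8.65 and 8.21 in PDLIM2 arrays 2 and 1, against 8.38 and 8.46 in mock arrays 2 and 1. Its difference was 0.27 in arrays 2 and -0.25 in arrays 1. PMVK, the next kinase, read 9.98 and 9.45 with PDLIM2, against 9.61 and 9.44 in mock, and stood apart in PDLIM2 array 2. ACAT2, a cytosolic thiolase that joins acetyl-CoA units, read 12.86 and 12.85 in PDLIM2 arrays 2 and 1, against 13.14 and 12.75 in mock arrays 2 and 1, so both PDLIM2 values fell between the mock ones. FDPS, which makes farnesyl diphosphate, read 10.38 and 9.80 with PDLIM2, against 10.18 and 9.88 in mock. Both arrays numbered 2 lay above both numbered 1 here, as they did for 24.8% of all tested probes. IDI1, the isomerase of the isoprenoid units, averaged 10.37 ± 0.24 in PDLIM2 arrays and 10.52 ± 0.35 in mock arrays (SD, n = 2 each).

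From squalene to cholesterol, 10 genes were measured, with a median difference of 0.00658, 5 higher and 5 lower. SQLE, the squalene epoxidase that is a control point of the sterol branch, read 12.85 and 12.00 log2 units in PDLIM2 arrays 2 and 1, against 12.79 and 12.58 in mock arrays 2 and 1. PDLIM2 array 1 was the low one, which gave a difference of -0.58 in arrays 1 and 0.06 in arrays 2. The dimmer SQLE probe (ILMN_1772241) differed from this, with -0.29 in arrays 1 and -0.27 in arrays 2. Both PDLIM2 arrays lay below both mock arrays there, and that probe is named after its values were seen. LSS, which cyclises the epoxide to lanosterol, read 11.38 and 10.47 with PDLIM2, against 10.87 and 10.64 in mock, and DHCR7, the last reductase of the pathway, read 11.19 and 10.31, against 10.72 and 10.49. In both genes the PDLIM2 arrays were the highest and the lowest of the 4, with PDLIM2 minus mock at 0.51 in arrays 2 and -0.16 in arrays 1 for LSS, and at 0.47 and -0.17 for DHCR7.

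SC5D, the sterol desaturase that acts before DHCR7, was the member above the filter whose PDLIM2 arrays both lay below the mock arrays by brightest probe. It read 9.33 and 9.88 in PDLIM2 arrays 2 and 1, against 9.98 and 9.93 in mock arrays 2 and 1, and the difference of -0.35 (SE 0.22) came mainly from arrays 2 (-0.65, against -0.05 in arrays 1). MSMO1, a sterol demethylase of the C-4 position, read 10.91 and 10.47 with PDLIM2, against 11.03 and 10.62 in mock, or -0.12 in arrays 2 and -0.15 in arrays 1. NSDHL, a dehydrogenase of the same demethylation, read 10.40 and 10.14, against 10.29 and 10.57, with 0.11 in arrays 2 and -0.43 in arrays 1. HSD17B7, its ketoreductase, went the other way, at 10.71 and 11.07 with PDLIM2, against 11.04 and 10.82 in mock (-0.33 in arrays 2 and 0.24 in arrays 1). Pseudogenes of HSD17B7 exist, so the value of its probe is uncertain.

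The remaining enzymes of this stretch differed little between the groups. CYP51A1, the lanosterol demethylase, averaged 9.28 ± 0.33 log2 units in PDLIM2 arrays and 9.22 ± 0.16 in mock arrays (SD, n = 2 each, as for the next values). TM7SF2, a sterol reductase, averaged 10.63 ± 0.43 in PDLIM2 arrays and 10.46 ± 0.15 in mock arrays. EBP, the sterol isomerase, averaged 10.75 ± 0.14 in PDLIM2 arrays and 10.68 ± 0.21 in mock arrays. The 3 differences were 0.06 (SE 0.21), 0.18 (SE 0.24) and 0.07 (SE 0.19), each within its standard error.

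Among the regulators, INSIG1, which retains SCAP and is itself a sterol-responsive gene, read 12.50 and 11.56 log2 units in PDLIM2 arrays 2 and 1, against 12.53 and 12.19 in mock arrays 2 and 1. PDLIM2 array 1 was the low array, with PDLIM2 minus mock at -0.64 in arrays 1 and -0.02 in arrays 2 (together -0.33, SE 0.31). By the dimmer INSIG1 probe (ILMN_1686989), PDLIM2 array 2 was the lowest, with -0.14 in arrays 1 and -0.39 in arrays 2. SREBF1, the gene of SREBP1, read 8.28 and 7.94 in the PDLIM2 arrays 2 and 1, above the 7.89 and 7.78 of the mock arrays. Its difference of 0.28 (SE 0.19) was not called and was positive within both numbers, at 0.39 (arrays 2) and 0.16 (arrays 1). SREBF2, the gene of SREBP2, averaged 6.58 ± 0.08 in PDLIM2 arrays and 6.61 ± 0.06 in mock arrays (SD, n = 2 each), and its difference was -0.03 (SE 0.17). SCAP averaged 10.82 ± 0.09 in PDLIM2 arrays and 10.81 ± 0.22 in mock arrays. STARD4, which carries cholesterol between membranes, averaged 6.68 ± 0.12 in PDLIM2 arrays and 6.70 ± 0.13 in mock arrays.

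Of the 7 fatty acid genes, the 5 above the filter had PDLIM2 minus mock differences between -0.12 and 0.03 log2 units by their brightest probes. FASN, the fatty acid synthase, read 12.92 and 12.60 in PDLIM2 arrays 2 and 1, against 12.68 and 12.79 in mock arrays 2 and 1, with 0.25 in arrays 2 and -0.19 in arrays 1. SCD, the stearoyl-CoA desaturase that makes oleate, read 12.78 and 12.68 with PDLIM2, within the 12.89 and 12.61 of mock. ACLY, which supplies cytosolic acetyl-CoA, averaged 11.59 ± 0.20 in PDLIM2 arrays and 11.71 ± 0.18 in mock arrays (SD, n = 2 each). Its second probe (ILMN_1749014) read 11.04 and 10.79 in PDLIM2 arrays 2 and 1, below the 11.27 and 11.23 of mock arrays 2 and 1, a difference of -0.33 (SE 0.18) that was not called; it is named here after its values were seen. ACACA, the carboxylase that commits carbon to fatty acids, averaged 10.18 ± 0.08 in PDLIM2 arrays and 10.19 ± 0.05 in mock arrays. ELOVL6, an elongase of palmitate, averaged 8.60 ± 0.23 in PDLIM2 arrays and 8.58 ± 0.19 in mock arrays. FADS1 and FADS2, the desaturases of polyunsaturated fatty acids, lay under the filter. FADS1 read 5.44 and 5.77 in PDLIM2 arrays 2 and 1, against 5.33 and 5.32 in mock, and FADS2 averaged 5.92 ± 0.05 in PDLIM2 arrays and 5.90 ± 0.25 in mock arrays.

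Within the array numbers, the sterol genes did not keep a common direction. Of the 17 measured sterol genes (mevalonate steps and squalene to cholesterol together, by brightest probe), 11 were higher with PDLIM2 in arrays 2. In arrays 1, 4 were higher. The median was 0.110 in arrays 2 and -0.0824 in arrays 1, where all tested genes had 0.0471 and 0.00674. Of the 17, 9 (52.9%) were higher in arrays 2 and lower in arrays 1, as were 25.2% of all tested genes. A pair of single arrays stands behind each such difference, so they carry no test. The median of the sterol genes over both numbers, 0.00913, was 0.17 without PDLIM2 array 1 and -0.23 without PDLIM2 array 2, and a called value of MVD or any other member needed an array to be left out.

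**Figure D2:**
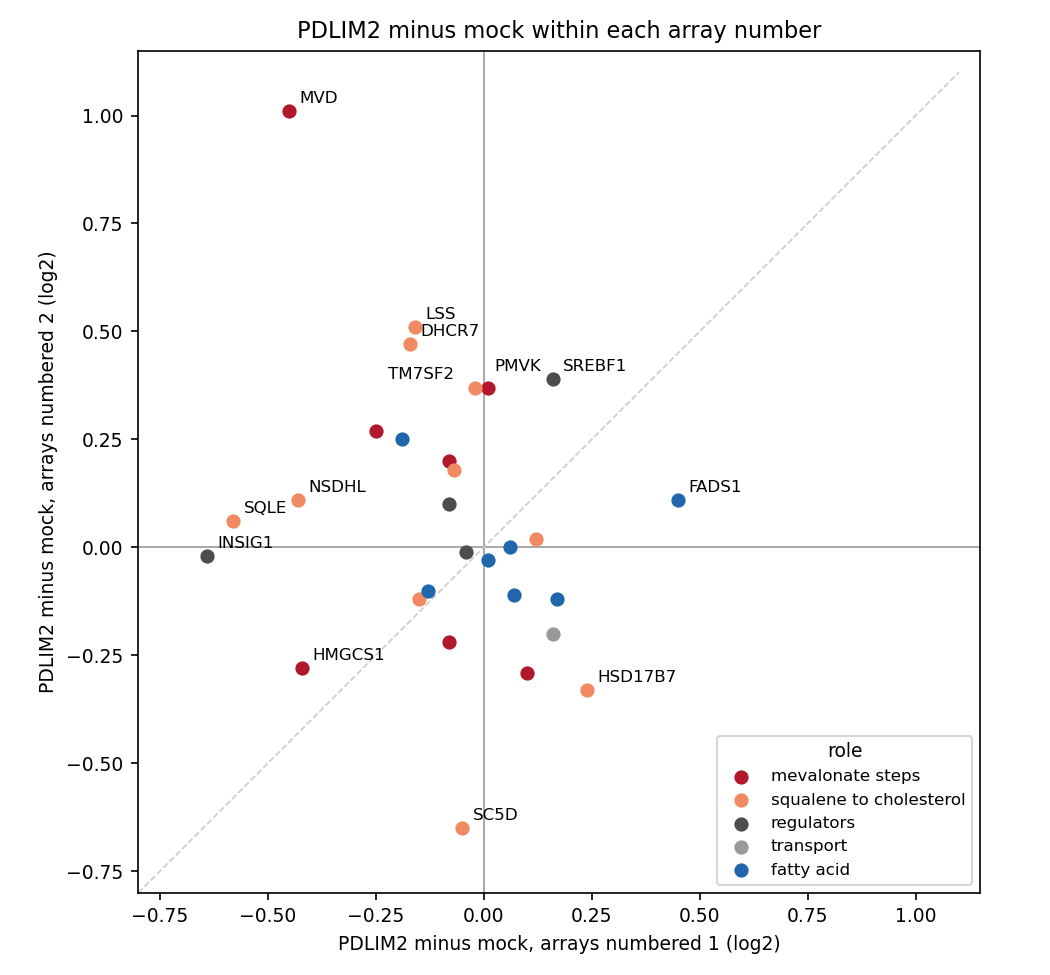
Each point is a member by role, with PDLIM2 minus mock in arrays 2 on the y axis and in arrays 1 on the x axis (log2 units; the dashed line marks equal differences). MVD, LSS and DHCR7 lie above 0 in arrays 2 and below 0 in arrays 1, INSIG1 and SQLE lie at -0.64 and -0.58 in arrays 1 and near 0 in arrays 2, and HMGCS1 lies below 0 in both.

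Between the array numbers the sterol genes lay mostly on 1 side, higher in the arrays numbered 2 in both groups. The labels give the number only as a replicate number and name no batch. Of the 29 measured members, 22 had higher values in number 2, with a median log2 difference of 0.224, against -0.00358 over all tested genes. All 7 genes of the mevalonate steps had higher means, from 0.18 for MVK to 0.47 for HMGCS1 and MVD. So did 7 of the 10 genes from squalene to cholesterol. Within both groups, number 2 was higher for 5 of those 7 mevalonate genes and for 7 of the 10. MVK and MVD had 0.44 and 1.20 in the PDLIM2 arrays, but -0.08 and -0.26 in the mock arrays. Limma called 0 of the 27 members above the filter, with adjusted p from 0.217 upwards, and 7 of all 23615 tested probes (0.0296%). At an unadjusted p under 0.05 there were 10 of the 27, each higher in number 2, of which 9 were sterol genes and 1 was INSIG1, against 16.6% of all tested probes in either direction. Counted over the members' 39 tested probes there were 12 (30.8%), and this count changed with each array left out. It rose without mock array 2 and fell without PDLIM2 array 1, PDLIM2 array 2 or mock array 1. Both arrays numbered 2 lay above both numbered 1 for 16 of the 27 and below them for 3. Over the 39 probes these were 20 (51.3%) and 3 (7.69%), against 24.8% of all tested probes in each direction.

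INSIG1 had the highest difference between the numbers, at 12.50 and 12.53 log2 units in PDLIM2 and mock arrays 2, against 11.56 and 12.19 in PDLIM2 and mock arrays 1. That is 1.56-fold (0.64, SE 0.21, limma adjusted p = 0.222), made of 0.95 in the PDLIM2 arrays and 0.33 in the mock arrays. With 1 array left out it lay between 0.32 and 0.96. LSS had a difference of 0.57 (SE 0.19), with 0.91 in the PDLIM2 and 0.23 in the mock arrays. DHCR7 had 0.56 (SE 0.19), with 0.88 and 0.23, and SQLE had 0.53 (SE 0.20), with 0.85 and 0.21. With 1 array left out, the ranges were 0.31 to 0.82 for LSS, 0.32 to 0.79 for DHCR7 and 0.24 to 0.82 for SQLE. In these 4 genes the PDLIM2 arrays were farther apart than the mock arrays. By brightest probe, HMGCS1 (0.54 in PDLIM2, 0.40 in mock), MSMO1 (0.44 and 0.41) and IDI1 (0.35 and 0.49) had like differences in both groups. FDPS had 0.58 in the PDLIM2 and 0.30 in the mock arrays, TM7SF2 0.61 and 0.21, PMVK 0.53 and 0.16, and CYP51A1 0.47 and 0.22.

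Other members did not follow this order. MVD differed by 1.20 in the PDLIM2 arrays and -0.26 in the mock arrays, and NSDHL by 0.25 and -0.29. HSD17B7 differed by -0.36 in the PDLIM2 arrays and 0.22 in the mock arrays, and SC5D by -0.55 and 0.05. Both arrays numbered 2 lay below those numbered 1 for SCAP (-0.22, SE 0.14), ELOVL6 (-0.29, SE 0.13) and ACACA (-0.09, SE 0.13). SREBF2 differed by 0.10 (SE 0.13) and SREBF1 by 0.22 (SE 0.17), both higher in number 2 in each group. Without mock array 2, limma called 10 probes of the members between the numbers (8 higher, 2 lower) and 3499 of all probes. Without PDLIM2 array 2 it called 695 of all and none of the members, and without PDLIM2 array 1 or mock array 1 it called none of either.

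**Figure D3:**
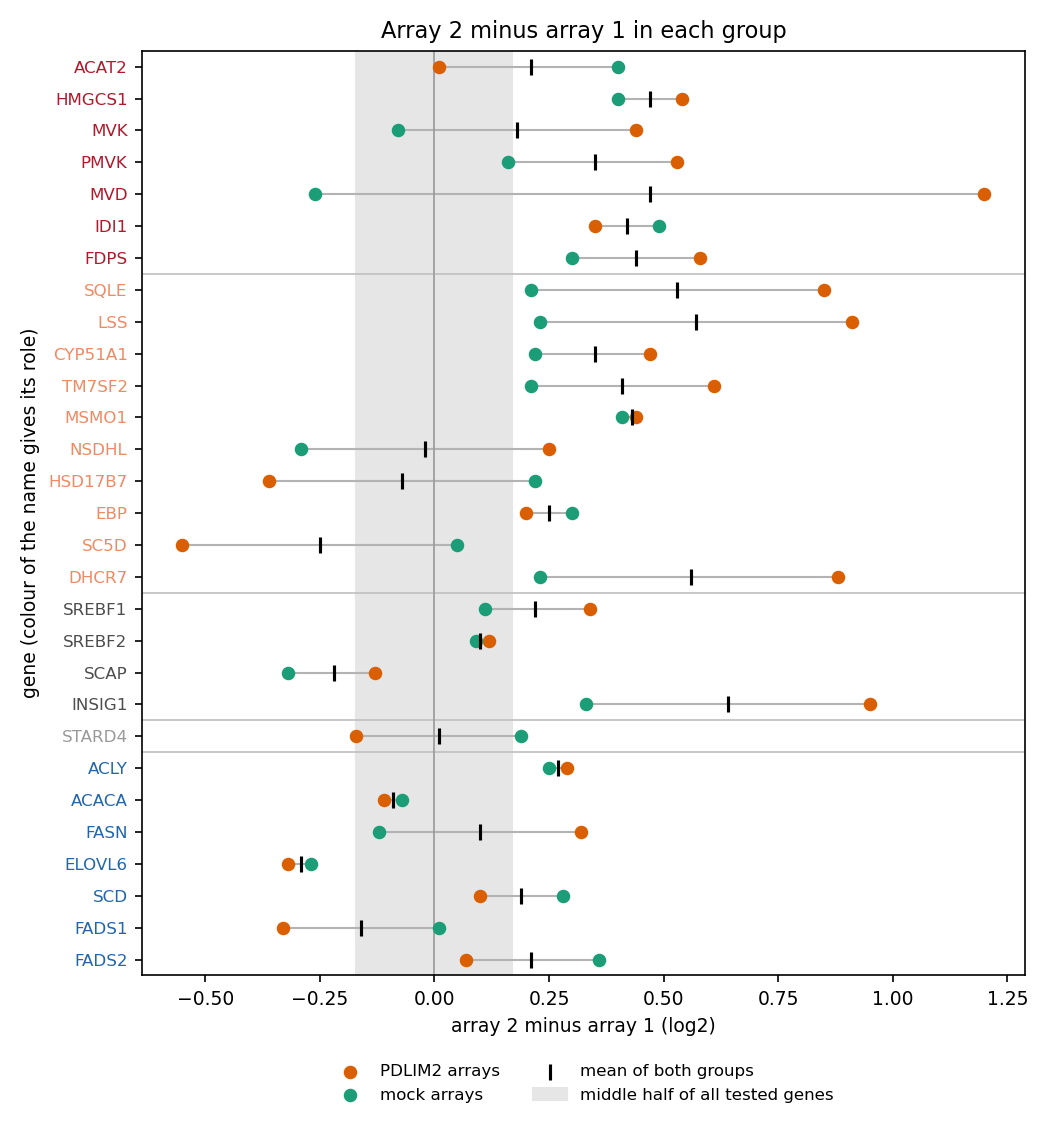
For each member, points give array 2 minus array 1 in the PDLIM2 arrays (orange) and in the mock arrays (green), a tick gives the mean of both (x axis, log2 units), and the grey band spans the lower to the upper quartile of all tested genes. Most sterol genes and INSIG1 lie to the right of the band by their mean, with the PDLIM2 point farther out for SQLE, LSS, DHCR7 and INSIG1, while the fatty acid genes lie on both sides of 0.

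Values of other gene groups are given beside these, and no gene of them was called (limma, adjusted p of at least 0.185). All 11 heat shock genes had lower means in number 2, DNAJA1 by the least, with a median of -0.214, DNAJB1 at -0.91 (SE 0.37), HSF1 at -0.71 (SE 0.21) and BAG3 at -0.65 (SE 0.55). Their median level was 12.96 and 12.64 log2 units in PDLIM2 and mock arrays 2, against 13.21 and 13.06 in PDLIM2 and mock arrays 1. Of the myeloid markers, 6 of 6 were lower in number 2 (median -0.314), with LYZ under the filter. Their median level was 6.20 and 6.25 in PDLIM2 and mock arrays 2, against 6.64 and 6.52 in arrays 1. Markers of Hodgkin and Reed-Sternberg cells were lower for 6 of 8 (median -0.357). Of the 8 markers of T and NK cells, 5 lay under the filter. The other 3 had a median of -0.126, with CD2 at 0.43 (SE 0.14), NKG7 at -0.13 (SE 0.14) and GZMB at -0.25 (SE 0.25). Over all 8, the median was 0.121, with 6 higher and 2 lower in number 2. The 5 measured B-cell markers, which include PAX5 under the filter, had a median of -0.147, with 2 higher and 3 lower. Over the 4 above the filter it was -0.00394, with 2 higher and 2 lower. The part of stress or of other cells in the sterol values was not tested.

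Sterol and fatty acid genes differed most in the comparison of array numbers. The 17 sterol genes had a median difference of 0.410 (array 2 minus array 1) and the 7 fatty acid genes one of 0.103. The quartiles of the sterol genes were 0.21 and 0.47 and those of the fatty acid genes -0.13 and 0.20, beside -0.17 and 0.17 for all tested genes. In the PDLIM2 arrays the medians were 0.469 (sterol) and 0.0718 (fatty acid), and in the mock arrays they were 0.222 and 0.0119. Number 2 was higher in both groups for 12 of 17 sterol genes and for 3 of 7 fatty acid genes, ACLY, SCD and FADS2, where 31.5% of all tested genes were. For PDLIM2 minus mock, the medians of the sterol and fatty acid genes were 0.00913 and 0.0234. The members were chosen with results known, so the difference between these sets carries no test.

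**Figure D4:**
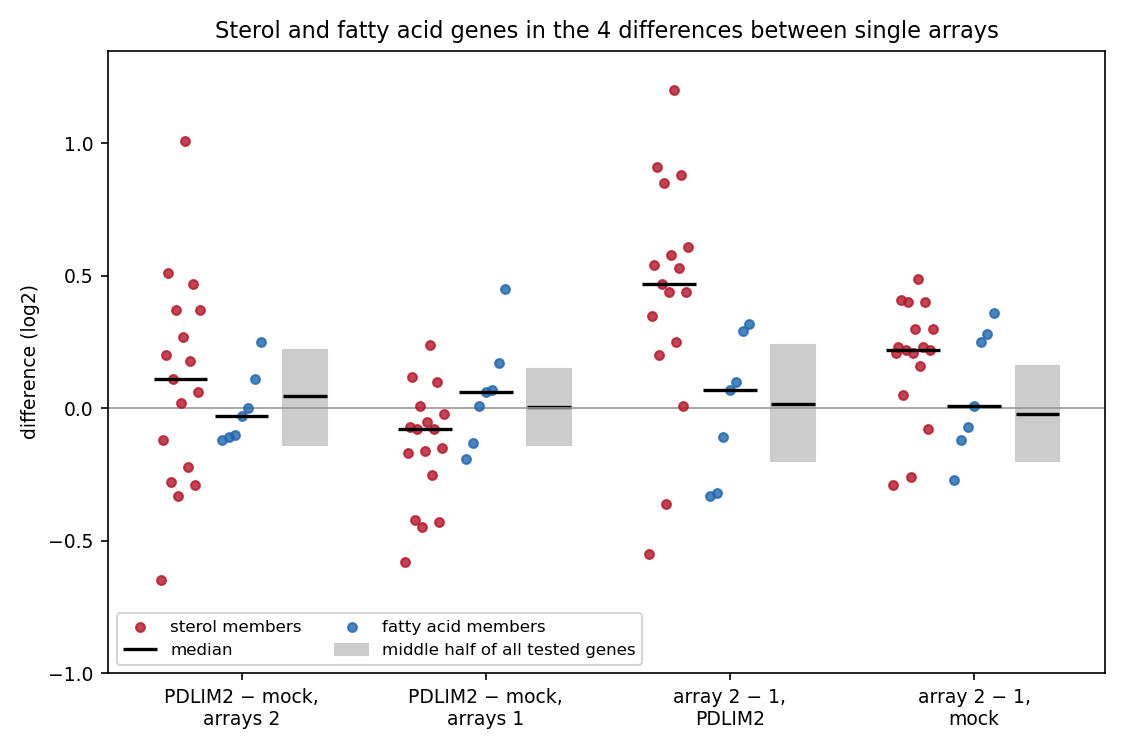
Points give each sterol (red) and fatty acid (blue) gene in the 4 differences between single arrays (y axis, log2 units), black lines are medians, and grey boxes span the quartiles of all tested genes with their median. The sterol median lies at 0.469 for array 2 minus array 1 in the PDLIM2 arrays and at 0.222 in the mock arrays, above the grey box in both, while the fatty acid median lies within it in all 4 differences.

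Of the 29 measured members, 10 have more than 1 probe, and these did not always move together. The sign of PDLIM2 minus mock differed between probes for 4 of them (ACAT2, LSS, ACACA and ELOVL6) and that of array 2 minus array 1 for 4 (MSMO1, INSIG1, ACACA and ELOVL6). The dimmer ACAT2 probe (ILMN_2133799) read 7.48 and 7.07 log2 units in PDLIM2 arrays 2 and 1, against 6.98 and 6.91 in mock arrays 2 and 1, or 0.32 (SE 0.20) where the brighter probe had -0.09. A dimmer probe of MSMO1 (ILMN_1689842) was the 1 probe of the members with an unadjusted p under 0.05 for PDLIM2 minus mock. It was singled out after its values were seen. The members' count of such probes rose without PDLIM2 array 1 or PDLIM2 array 2 and fell without mock array 2. The share of all tested probes in those fits is not given here, so this says nothing about the members in particular. The MSMO1 probe read 8.89 and 9.41 in PDLIM2 arrays 2 and 1, below the 10.06 and 9.60 of mock arrays 2 and 1. That is a difference of -0.67 (SE 0.25, limma unadjusted p = 0.0288). The brighter MSMO1 probe had -0.13, and the third had -0.05.

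Further probes of some other genes also had higher means in number 2, and the examples were chosen after their values were seen. Both DHCR7 probes had higher values in number 2, by 0.56 and 0.73, and the second (ILMN_1815626) had the lowest adjusted p of the members between the numbers (limma, 0.119). All 3 LSS probes did too, by 0.57, 0.32 and 0.32, as did both SQLE probes, by 0.53 and 0.24. Of the SREBF1 probes, a dimmer one (ILMN_2328986) had 0.63 in the PDLIM2 arrays and -0.05 in the mock arrays. The dimmer INSIG1 probe did not, at 8.25 and 8.64 in PDLIM2 and mock arrays 2, against 8.51 and 8.66 in PDLIM2 and mock arrays 1, or -0.14 (SE 0.17). ACACA had -0.09 and, at its next probe (ILMN_1772123), 0.22. The third MSMO1 probe (ILMN_2402499) had -0.20 where the brightest had 0.43. The second MSMO1 probe (ILMN_1689842) had -0.03, with -0.52 in the PDLIM2 arrays and 0.46 in the mock arrays.

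Genes around the pathway gave no call either. The proteases that cleave SREBP precursors, MBTPS1 and MBTPS2, differed with PDLIM2 by 0.17 (SE 0.26) and 0.25 (SE 0.24), and INSIG2 by -0.10 (SE 0.17). Between the numbers MBTPS1 and MBTPS2 were higher in number 2, by 0.50 (SE 0.17) and 0.46 (SE 0.17). In the isoprenoid branches, 3 of 4 genes had higher means with PDLIM2, 1 of them by only 0.01, as did 55.5% of all tested genes. DHDDS, a subunit of the enzyme that makes dolichol chains, read 8.50 and 8.20 log2 units in PDLIM2 arrays 2 and 1, against 7.82 and 7.54 in mock arrays 2 and 1. The groups did not overlap, and the difference of 0.67 (SE 0.20) was alike in arrays 2 and 1, at 0.68 and 0.66, but was not called (limma, adjusted p = 0.9998). PDSS1 differed by 0.15 and GGPS1 by -0.11.

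Sterol transport, storage and export genes were higher with PDLIM2 for 5 and lower for 5 of 10 measured genes, with MYLIP, a ligase that lowers lipoprotein receptors, at -0.39 (SE 0.29), the lysosomal cholesterol exporter NPC1 at 0.25 (SE 0.17) and the lysosomal lipase LIPA at -0.19 (SE 0.21). Between the numbers, TMEM97, a sterol-responsive membrane protein, had 0.55 (SE 0.20), with 12.52 and 12.20 in PDLIM2 and mock arrays 2, against 11.58 and 12.05 in PDLIM2 and mock arrays 1. MYLIP had 0.54 (SE 0.24) and the liver X receptor gene NR1H3 -0.45 (SE 0.14). Of 10 measured further steps of sterol and fatty acid metabolism, 5 were higher and 5 lower with PDLIM2. The phosphatidate phosphatase LPIN1 had -0.41 (SE 0.24), the elongase ELOVL5 0.22 (SE 0.17) and the malic enzyme ME1 0.20 (SE 0.18). Between the numbers, ACSL1 had -0.49 (SE 0.14), LPIN1 -0.47 (SE 0.20) and ACACB 0.37 (SE 0.14).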

How the data were processed

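RNA from 2 PDLIM2 and 2 mock samples of L591 cells was measured on Illumina bead arrays labelled with biotin, per the labels. The authors deposited 1 log2 intensity per probe and array, without scanner software, background correction or normalization given in the sources used here. The medians are nearly the same on all 4 arrays (6.006 to 6.007), and the values were used as deposited. Of 47231 probes, 1 had an empty cell and was left out. Genes come from GEO's platform annotation, with 30112 complete probes having 1 symbol, and symbols were updated through RefSeq.

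Probes with a mean above 5.99 log2 units, the median of all, were tested (23615). Both comparisons, PDLIM2 minus mock and array number 2 minus number 1, were fitted to all 4 arrays in R 4.3.3 with limma 3.58.1 (lmFit, then eBayes), with 2 residual degrees of freedom, two-sided p-values and Benjamini-Hochberg adjustment at 0.05. Members under the filter take their values from the fit on all 47230 complete probes. The fit was tested on simulated data.

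Members, roles, gene lists and tests were chosen with earlier results of these data known. All 30 members are named, the 29 measured ones by their brightest probe. Array values are given for the 8 with the largest difference in either comparison, the 6 brightest, and those whose differences within the numbers have opposite signs and lie 0.5 or more apart. A further probe is named where its difference is of opposite sign and at least 0.2. Of each list of other genes, up to 3 with the largest difference are named. A few genes of these lists are not reported here. Alternatives changed the filter (none, or the 75th percentile), the scale (quantile normalization, centring on the median, 50 added before log2) and the prior (limma-trend, robust). Others added the group or the replicate number as a second term, left out each array or, for medians, took tested members only or the mean over probes.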

Additional observations from a re-analysis of the deposited data

How the results depend on the processing

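The labels tie same-numbered arrays by nothing but the number, and deviations from the group means correlated between them at r = 0.476 (across probes, which are no independent replicates). With the replicate block, limma called 1 probe for PDLIM2 minus mock, none of a member, and 2 probes of members had an unadjusted p under 0.05. For PDLIM2 minus mock, the other 7 settings, which changed the filter, the scale or the prior, left the counts of called probes at 0. Between the array numbers, limma called 135 probes without a filter, 1 at the 75th percentile, 0 with the offset, 254 with limma-trend, 94 with the robust prior and 55 with the group as a second term, and none of these was a member's. Testing fewer probes alters the adjustment; otherwise the cause was not tested. No member changed sign under these settings, in either comparison. Medians of PDLIM2 minus mock lay close to 0 throughout, and that of the fatty acid genes was -0.013 over members above the filter and -0.017 over the mean of all probes. The deposited medians are already alike, and quantile normalization and median centring left the 7 calls between the numbers at 7.

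Leaving out an array makes a group of 1, assumed to vary like the other group, in which numbers and groups are no longer balanced. For these fits the share of all tested probes at an unadjusted p under 0.05 is not given here. The members' counts at that level therefore cannot be set against it. The ranges for PDLIM2 minus mock were 0 to 810 probes called, 0 to 2 of members, and 0 to 8 member probes at an unadjusted p under 0.05. Between the numbers they were 0 to 3499, 0 to 10 and 1 to 17. The medians for PDLIM2 minus mock ranged from -0.13 to 0.089 (all members) and -0.23 to 0.17 (sterol), and the fatty acid median between the numbers from -0.021 to 0.13. The sterol median between the numbers stayed between 0.26 and 0.42. PDLIM2 minus mock changed sign with an array left out for 24 of 29 members, with these log2 ranges: ACAT2 -0.29 to 0.11, MVK -0.21 to 0.23, PMVK -0.07 to 0.45, MVD -0.32 to 0.88, IDI1 -0.39 to 0.10, FDPS -0.23 to 0.35, SQLE -0.68 to 0.17, LSS -0.28 to 0.63, CYP51A1 -0.18 to 0.29, TM7SF2 -0.13 to 0.48, MSMO1 -0.35 to 0.09, HSD17B7 -0.22 to 0.13, EBP -0.08 to 0.22, DHCR7 -0.29 to 0.59, SREBF2 -0.09 to 0.03, SCAP -0.15 to 0.17, INSIG1 -0.81 to 0.14, STARD4 -0.12 to 0.07, ACLY -0.26 to 0.03, ACACA -0.07 to 0.04, FASN -0.13 to 0.19, ELOVL6 -0.13 to 0.19, SCD -0.16 to 0.12, FADS2 -0.15 to 0.20. It kept its sign for HMGCS1 (-0.62 to -0.08), NSDHL (-0.30 to -0.02), SC5D (-0.63 to -0.08), SREBF1 (0.11 to 0.45) and FADS1 (0.11 to 0.44). Array 2 minus array 1 changed sign for 7 of 29: MVD -0.04 to 0.98, NSDHL -0.23 to 0.20, HSD17B7 -0.23 to 0.10, SC5D -0.58 to 0.07, STARD4 -0.09 to 0.11, FASN -0.02 to 0.23, FADS1 -0.38 to 0.07.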
